A study of Mus musculus with 8 samples.

Results

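The 8 genes described here are used by red blood cells to make heme and to build their membrane, and were followed in CD31-enriched cells of mouse embryos that were wild type or carried a mutation of the Gata2 +9.5 element. They were Alas2 and Fech of heme synthesis, the membrane proteins Slc4a1 and Rhag, and the skeleton and linker proteins Ank1, Sptb, Epb42 and Add2. They were found by matching the gene name of every non-control probe, in its current or older form, to these 8 symbols. That gave 9 probes of 55681, 1 for each gene and 2 for Epb42, and the 8 genes were 8 of 40227 features tested. Sptb carried its older name Spnb1 and Epb42 its older name Epb4.2 in the files. All 8 passed the filter on dim probes, which asked for a signal well above background on 4 of the 8 arrays.

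The +9.5 element is an enhancer inside the Gata2 gene, which encodes a transcription factor needed to form blood stem and progenitor cells. Each of 4 mutant and 4 wild type embryos at E12.5 was dissociated with collagenase after its liver and brain were removed, and cells that bound magnetic beads coated with anti-CD31 were kept. The embryos came from 2 litters of heterozygous parents on a C57Bl/6J background, with 2 embryos of each genotype in each litter (numbers 1 and 2 in litter 1, numbers 3 and 4 in litter 2). The labels name the genotype as Gata2 +9.5 mutant, and the sample descriptions write it as Gata2+9.5-/-, that is, homozygous for the mutation. RNA of single embryos was labelled with Cy3 and hybridised to 1-colour Agilent arrays, 1 array an embryo. Bead enrichment is partial, so each array holds RNA of CD31-positive cells and of whatever else was carried over. All 12 endothelial markers examined, including Pecam1, which encodes CD31, were well above background on all 8 arrays.

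Heme is made in the mitochondrion and cytosol by a chain of enzymes. In red cell precursors the first step is run by Alas2, the erythroid 5-aminolevulinate synthase, and in the last step ferrochelatase, the product of Fech, inserts iron into the ring. The red cell membrane is held by a spectrin and actin network that ankyrin and protein 4.2 tie to the anion exchanger band 3, and adducin sits where spectrin meets short actin filaments. Many of these genes are switched on late in red cell maturation, and several are known targets of GATA1, the factor that takes over from GATA2 in erythroid cells.

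Gata2 itself was lower in every mutant embryo, by 2.42 ± 0.39 on the log2 scale (SE, 5.36-fold lower, adjusted p = 0.0858), with no overlap between genotypes. In bulk samples such as these, fewer cells of a type and less RNA per cell cannot be told apart. The signal at the 75th percentile, by which each array was scaled, ran from 996 to 2481, and 74.9% to 92.0% of probes were well above background. On the first principal component of all features (58.9% of the variance) wild type embryos 2 and 3 and mutant embryo 4 stood far to the positive side, and results are also given without these 3 arrays. Litter 1 was hybridised on 1 slide and scanned once, and litter 2 on another, so litter, slide and scan cannot be told apart. Levels are log2 signals minus the array's 75th percentile, and levels of different genes were not set against each other, because each comes from its own probe.

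The genotypes did not separate the 8 genes as a group, while the litters separated 4 of them. No gene of the 8 passed an adjusted p under 0.05 between genotypes, against 18 of 40227 features (0.0447%). Of the 8, 6 were higher and 2 lower in the mutants, with a median difference of 0.34 on the log2 scale, beside 0.05 over all features. In 2 of the genes the genotypes did not overlap: Add2 was higher in every mutant embryo and Sptb lower in every mutant embryo. Of all features, 0.505% were higher and 0.532% lower in the mutants without overlap. Between litters, Alas2, Slc4a1, Rhag and Ank1 were higher in litter 2 at an adjusted p under 0.05, against 4.01% of features called higher and 0.895% called lower in litter 2. The same 4 genes were those whose litters did not overlap, which held in this direction for 10.5% of all features. The median difference between litters was 1.51 over the 8 genes and 0.32 over all features.

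**Figure D1:**
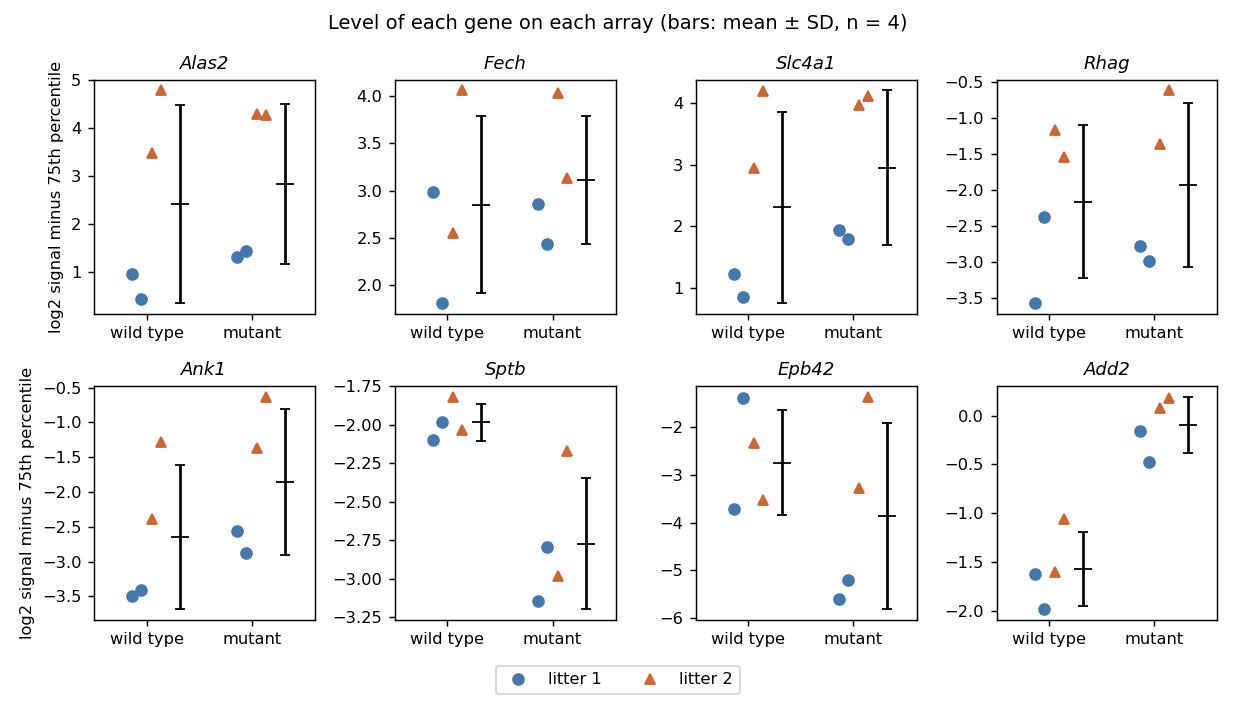
Level of each of the 8 genes on each array (y axis, log2 signal minus the array's 75th percentile) for the wild type and mutant embryos (x axis). Circles are litter 1, triangles are litter 2, and black bars give the mean ± SD of the 4 embryos. In the panels of Alas2, Slc4a1, Rhag and Ank1 all triangles lie above all circles, and in those of Sptb and Add2 the genotypes do not overlap.

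Alas2 had the largest litter difference of the 8 genes. Its probe, at chromosome X, 147004993 to 147005052, forward strand (mm9, as all probe positions here), read 0.95, 0.43, 3.47 and 4.79 in wild type embryos 1 to 4. In mutant embryos 1 to 4 it read 1.31, 1.44, 4.29 and 4.28. The embryos of litter 2 were the high ones in both genotypes. The mean was 1.03 ± 0.45 in litter 1 and 4.21 ± 0.55 in litter 2 (SD, n = 4 each), a difference of 3.18 ± 0.35 (SE) or 9.04-fold, with an adjusted p of 0.0117. The litter difference was 3.44 among wild type and 2.91 among mutant embryos. Between genotypes the difference was 0.42 ± 1.03 (SE), with a 95% interval from -1.85 to 2.69 and an adjusted p of 0.840. With litter as a block its SE was 0.35 and its adjusted p 0.560. The genotype difference was 0.68 within litter 1 and 0.16 within litter 2. Litter accounted for 93.1% of the variance of Alas2 over the 8 arrays and genotype for 1.63%, where the medians over all features were 25.4% and 14.5%.

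Fech, the gene of the last enzyme of the chain, divided the embryos neither by litter nor by genotype at this scaling. Its probe, at chromosome 18, 64616928 to 64616987, reverse strand, read 2.98, 1.81, 2.56 and 4.06 in the wild type embryos and 2.86, 2.43, 4.04 and 3.13 in the mutants. Both litters and both genotypes overlapped. The difference was 0.26 ± 0.52 (SE) between genotypes (adjusted p = 0.802) and 0.93 ± 0.43 between litters (adjusted p = 0.207). After quantile normalization the genotype difference of Fech was -0.09 and its litter difference 1.40, the latter with an adjusted p of 0.0445.

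Slc4a1 encodes band 3, the anion exchanger and the main membrane anchor of the skeleton. Its probe lies at chromosome 11, 102210256 to 102210315, reverse strand. Wild type embryos 1 to 4 read 1.23, 0.86, 2.94 and 4.20, and mutant embryos 1.94, 1.79, 3.96 and 4.11. All 4 embryos of litter 2 lay above all 4 of litter 1, by 2.34 ± 0.33 on average (SE, 5.08-fold, adjusted p = 0.0138). The genotypes overlapped, and their difference was 0.64 ± 0.79 with a 95% interval from -1.11 to 2.39. With litter as a block the SE was 0.33 and the adjusted p 0.560. Slc4a1 followed Alas2 closely from array to array, with Pearson's r of 0.99 over 8 arrays that share their scaling and litters, and 0.95 after each litter's mean was taken out.

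Rhag encodes the Rh-associated glycoprotein, which carries the Rh complex to the red cell surface. Its probe, at chromosome 17, 40976929 to 40976988, forward strand, read -3.57, -2.37, -1.17 and -1.55 in wild type embryos 1 to 4. The mutants read -2.78, -2.98, -1.36 and -0.62. Litter 2 was again the high one in both genotypes. The litter difference was 1.75 ± 0.34 (SE, 3.37-fold, adjusted p = 0.0276) and the genotype difference 0.23 ± 0.64 (adjusted p = 0.860).

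Ank1 encodes erythroid ankyrin, which joins spectrin to band 3. Its probe lies at chromosome 8, 24259068 to 24259127, forward strand. It read -3.50, -3.41, -2.38 and -1.29 in wild type embryos 1 to 4 and -2.57, -2.88, -1.37 and -0.63 in the mutants. Litter 2 exceeded litter 1 by 1.67 ± 0.33 (SE, 3.19-fold, adjusted p = 0.0277). Mutants averaged 0.73 above wild type embryos in litter 1, where they did not overlap, and 0.84 above them in litter 2, where they did. The genotype difference of 0.78 ± 0.62 did not pass the test, with an adjusted p of 0.717, nor did it with litter as a block, where its SE was 0.33 and its adjusted p 0.560.

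The calls between litters rested on few arrays. Without mutant embryo 1 the adjusted p of the litter difference was 0.0506 for Alas2 and 0.0521 for Slc4a1, and without mutant embryo 2 it was 0.0568 and 0.0600, so that none of the 4 genes passed. These 2 settings also cut the features called over the whole array from 1975 to 25 and 4. The sizes moved little: over all 16 alternatives the litter difference stayed between 2.71 and 3.61 for Alas2 and between 1.88 and 2.79 for Slc4a1. Ank1 and Rhag passed under 7 of 16 alternatives each, with differences from 1.20 to 1.90 and from 1.24 to 2.02. Besides the 2 settings just named, Ank1 lost its call without wild type embryo 1, wild type embryo 4, mutant embryo 3 or mutant embryo 4, and Rhag without those or without wild type embryo 3. Scaling by the median moved the median litter difference of all features from 0.32 to -0.15. Then 2 of the 8 genes, Alas2 and Slc4a1, passed, and 1011 features were called over the whole array. Without wild type embryos 2 and 3 and mutant embryo 4 together, a setting chosen for this comparison after the data were seen, 5 of the 8 genes passed, the fifth being Fech. In that setting 5781 features were called over the whole array, beside 1975 with all arrays. After quantile normalization 4 passed, with Fech in place of Ank1, and 795 features were called over the whole array. With the second principal component (19.2% of the variance) Alas2, Slc4a1, Ank1 and Rhag had r = 0.90, 0.93, 0.88 and 0.62. Rhag also had r = 0.72 with the first. What part these axes have in the litter differences was not tested.

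Add2 was the gene of the 8 with the largest difference between genotypes. It encodes beta-adducin, which caps actin filaments and helps spectrin bind them, and it is also known from neurons. Its probe lies at chromosome 6, 86069490 to 86069549, forward strand. Wild type embryos 1 to 4 read -1.63, -1.98, -1.60 and -1.06, and mutant embryos -0.15, -0.48, 0.08 and 0.18. The lowest mutant was above the highest wild type embryo, and the mutants exceeded the wild type by 1.49 in litter 1 and by 1.46 in litter 2. On average the mutants were 1.47 ± 0.34 higher (SE, 2.78-fold, 95% interval from 0.73 to 2.22). The adjusted p over all features was 0.717, and 0.217 with litter as a block, so Add2 did not pass the test. Its unadjusted p was 0.00114, and 0.38% of all features had a value under 0.05 and a higher mutant mean. Mutants stood above wild type embryos without overlap for 0.505% of features. The exact two-sided permutation test gave p = 0.0286, the smallest that the 70 arrangements of 4 against 4 allow. The difference of Add2 stayed positive under all 18 alternatives, from 1.16 without the 3 arrays that stood apart to 1.74 with median scaling, with an unadjusted p under 0.05 in each. In the authors' deposited table its log2 fold change was 1.74 with an adjusted p of 0.498.

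Sptb, the gene of erythroid beta-spectrin, ran the other way. Its probe lies at chromosome 12, 77682089 to 77682148, reverse strand. It read -2.10, -1.98, -1.82 and -2.03 in wild type embryos 1 to 4, which lay close together, and -3.14, -2.80, -2.98 and -2.17 in the mutants. Every mutant was below every wild type embryo, with mutant embryo 4 nearest to them. The mutants were lower by 0.79 ± 0.33 (SE, 1.73-fold lower), by 0.93 in litter 1 and 0.65 in litter 2. The adjusted p was 0.717 and the unadjusted p 0.0360, and 2.67% of all features had a value under 0.05 and a lower mutant mean. Mutants lay below wild type embryos without overlap for 0.532% of features. Without the 3 arrays that stood apart the mean difference was -0.91, and it stayed negative under all 17 alternatives, from -0.99 to -0.52, with an unadjusted p under 0.05 in 8 of them. Sptb was correlated with the first principal component at r = 0.78 over the 8 arrays, and what part that axis has in its difference was not tested. Over the 8 arrays Sptb and Add2 had r = -0.72, and -0.87 within litters. Genotype was not taken out of either r, and it accounted for 68.1% of the variance of Sptb and 86.4% of that of Add2. Both r thus carry the opposite genotype differences of these genes and are no separate result.

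Epb42 encodes protein 4.2, which binds band 3 and ankyrin under the membrane. The brighter of its 2 probes, at chromosome 2, 120849386 to 120849445, reverse strand, read -3.73, -1.39, -2.34 and -3.54 in wild type embryos 1 to 4. It read -5.60, -5.21, -3.29 and -1.37 in the mutants, of which 2 of 4 were well above background. In litter 1 both mutants lay below both wild type embryos, by 2.84 on average, and in litter 2 the genotypes overlapped, with a difference of 0.61. The test of this change between litters gave 3.46 ± 1.24 (SE) with an unadjusted p of 0.0219, and 1.22% of all features reached an unadjusted p under 0.05. Its adjusted p was 1.00, and no feature passed (0%). The other probe, at chromosome 2, 120844440 to 120844499 in the RefSeq transcript, gave a mutant minus wild type difference of -1.15 in litter 1 and 0.36 in litter 2, with 3 of 4 wild type and 2 of 4 mutant embryos well above background. Over both genotypes and litters the brighter probe gave -1.11 ± 0.88 (adjusted p = 0.717) and the other probe -0.40. Epb42 was correlated with the first principal component at r = 0.89, and its lowest readings came from mutant embryos 1 and 2, where signal was close to background.

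**Figure D2:**
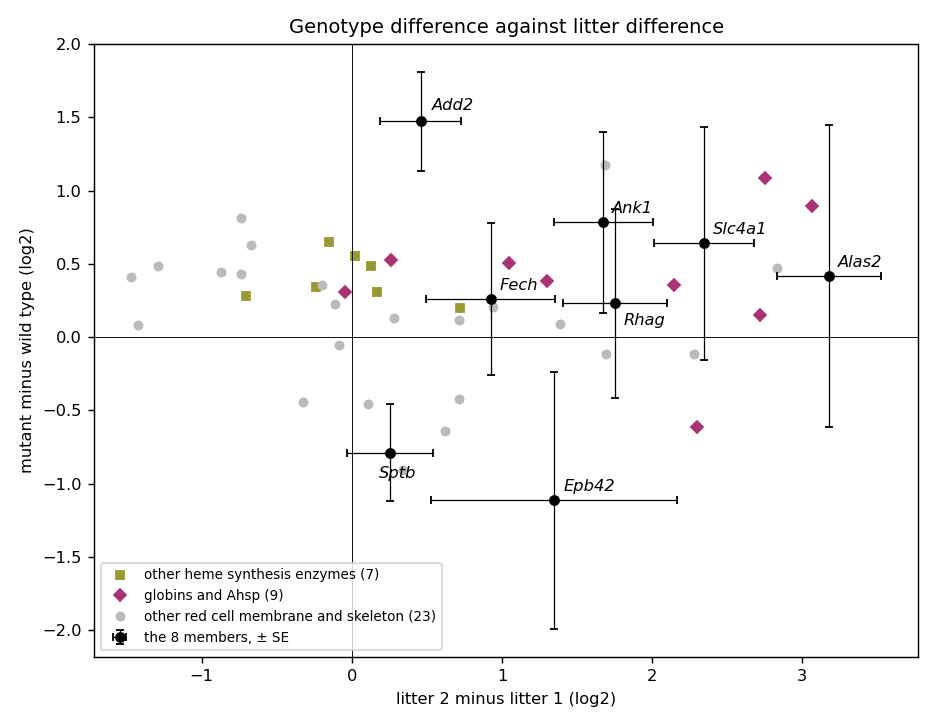
Difference between genotypes (y axis, mutant minus wild type, log2) against difference between litters (x axis, litter 2 minus litter 1, log2), 1 point a gene. Black points are the 8 genes with SE bars, squares the 7 other heme synthesis enzymes, diamonds 8 globins and Ahsp, and grey points 23 other red cell membrane genes. Alas2 and Slc4a1 lie far to the right with wide vertical bars, Add2 alone at the top near a litter difference of 0.46, and the heme enzymes close to the vertical axis.

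The promoters of the genes that divided by litter and of those that divided by genotype are shown here because several of them are known GATA1 targets. RefSeq promoter sequences of the GRCm38.p6 build were at hand for 5 of the 8 genes, Alas2, Rhag, Sptb, Add2 and Epb42. Each line gives the 250 bases before the start that the table uses, with matches to a GATA motif in capitals.
Alas2, chrX:150547167-150547416, forward strand: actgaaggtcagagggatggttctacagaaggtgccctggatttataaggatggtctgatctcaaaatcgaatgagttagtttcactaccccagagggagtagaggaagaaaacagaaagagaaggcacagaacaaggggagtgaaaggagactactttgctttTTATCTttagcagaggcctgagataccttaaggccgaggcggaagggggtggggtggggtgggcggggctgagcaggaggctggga
Rhag, chr17:40810899-40811148, forward strand: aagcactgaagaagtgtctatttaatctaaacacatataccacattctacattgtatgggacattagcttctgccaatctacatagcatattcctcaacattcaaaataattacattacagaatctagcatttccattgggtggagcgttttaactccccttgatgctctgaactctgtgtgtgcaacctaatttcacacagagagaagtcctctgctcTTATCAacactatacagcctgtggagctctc
Add2, chr6:86028431-86028680, forward strand: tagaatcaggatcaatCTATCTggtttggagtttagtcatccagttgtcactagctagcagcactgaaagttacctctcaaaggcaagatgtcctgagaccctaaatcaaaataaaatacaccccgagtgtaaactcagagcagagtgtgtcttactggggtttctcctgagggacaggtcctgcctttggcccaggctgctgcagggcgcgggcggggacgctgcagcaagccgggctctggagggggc
Sptb, chr12:76710548-76710797, reverse strand: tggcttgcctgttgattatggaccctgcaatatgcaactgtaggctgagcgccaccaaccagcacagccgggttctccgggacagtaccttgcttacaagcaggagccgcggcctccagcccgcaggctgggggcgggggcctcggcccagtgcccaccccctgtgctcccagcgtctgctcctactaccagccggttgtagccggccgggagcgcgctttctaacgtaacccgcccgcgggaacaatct
The motif was GATA with A or T before it and A or G after it, on either strand. Alas2 had 1 match, 86 to 81 bases before the start, and Rhag 1, 31 to 26 bases before it. Add2 had 1 match, at 234 to 229 bases, and Sptb had none in this window. Epb42 had 1 match, at 226 to 221 bases. A match was found in 26.5% of 32851 promoters of the same length. For CCNCNCCC on either strand, letters that KLF1-type factors are known to bind, overlapping matches counted separately, Alas2 had 4, Sptb 3, Add2 2 and Rhag and Epb42 none, and 45.9% of promoters had at least 1. A match in these letters is a description of the sequence and was not set against any binding data.

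The 7 heme synthesis enzymes outside the 8 genes lacked the litter call of Alas2. All 7 other enzymes, from Alas1, the form of the first enzyme used outside red cells, to Ppox, were measured, and none passed the test between genotypes or between litters. Their differences between genotypes ran from 0.20 for Ppox to 0.65 for Uros, with a median of 0.34, the same as that of the 8 genes to the second decimal. The median litter difference of the 7 was 0.02, with Alas1 at -0.70 and Ppox at 0.72. Urod, the decarboxylase that acts before Cpox, was higher in the mutants by 0.55 on average (adjusted p = 0.717). Its genotypes barely separated, with the highest wild type embryo at 4.458 and the lowest mutant at 4.460. Mutants stood above wild type embryos without overlap for 0.505% of all features. Among 21 genes of iron and heme transport, 18 were higher and 3 lower in the mutants, none past the test, with a median of 0.33. Between litters 1 of the 21 passed, Slc25a37 or mitoferrin, which brings iron into the mitochondrion of red cell precursors, at 1.56 ± 0.30 higher in litter 2 (SE, adjusted p = 0.0249).

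Other red cell membrane genes split in the litter comparison. Of 23 such genes 4 were higher in litter 2 and 3 lower at an adjusted p under 0.05, and none passed between genotypes. Among the higher ones were Kel, the Kell blood group glycoprotein, at 2.83 ± 0.34 (SE, adjusted p = 0.0118), Tmod1 or tropomodulin at 2.28 and Rhd of the Rh complex at 1.69. The litters of Rhd overlapped. Tmod1 was well above background on 4 of 8 arrays, the fewest the filter allowed. It read lower on every litter 1 array, so it may have passed the filter through litter 2 alone. The 3 lower ones were the water channel Aqp1 at -1.43, the glucose carrier Slc2a1 at -1.29 and the nucleoside carrier Slc29a1 at -1.47, genes that are also used outside red cells. Of 11 paralogs of the 8 genes that other tissues use, such as Ank2, Sptbn1, Add1 and Slc4a2, none passed in either comparison, and Rhbg was the one with an unadjusted p under 0.05 between genotypes, at -0.96 ± 0.42. The other adducins Add1 and Add3 differed by 0.35 and 0.29 between genotypes, beside 1.47 for Add2, all on the log2 scale of differences.

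Part of the globins were higher in litter 2, as Alas2 and Slc4a1 were. Of 10 listed genes 9 were measured (8 globins and Ahsp, which encodes a chaperone of alpha globin), and 4 globins and Ahsp were higher in litter 2 at an adjusted p under 0.05. These were the embryonic Hba-x at 3.06 ± 0.37 (SE) and Hbb-bh1 at 2.75 ± 0.39, the adult Hbb-bt at 2.72 ± 0.34 and Hbb-bs at 2.30 ± 0.47, and Ahsp at 2.14 ± 0.32. Hba-a1 at 1.30 and Hbb-y at 1.05 did not overlap between litters but did not pass, and Hba-a2 at -0.05 and Hbb-b2 at 0.26 overlapped. Hba-a1 and Hba-a2 were each saturated on 4 arrays and Hbb-y on 1, which limits a difference there, and probes of near-identical globin copies can bind each other's RNA. Between genotypes no globin passed, with a median of 0.38 and differences from -0.61 for Hbb-bs to 1.09 for Hbb-bh1. Among 11 red cell enzymes and late genes, Trim10 at 2.48 and Trim58 at 1.55 were higher in litter 2 (adjusted p = 0.0138 and 0.0329). Trim58 was well above background on 2 wild type and 2 mutant arrays, the fewest the filter allowed. It read lower on every litter 1 array, so it may have passed the filter through litter 2 alone. Car1, a carbonic anhydrase, was at -1.17 ± 0.53 between genotypes with an adjusted p of 0.717.

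The factors that drive these genes did not share one pattern. In a list of 12, made of erythroid transcription factors and the receptor Epor, 6 were higher and 6 lower in the mutants, and none passed the test. Gata1, the erythroid GATA factor, read 0.69, 0.30, 1.10 and 1.36 in wild type embryos 1 to 4 and -1.72, -1.05, -0.49 and -0.33 in the mutants. All mutants were below all wild type embryos, by 1.76 ± 0.41 on average (SE, 3.39-fold lower, adjusted p = 0.717). Epor, the erythropoietin receptor, was also lower without overlap, at -0.65, and Myb, a factor of blood progenitors, was at -0.84 with overlap. Nfe2 was higher in litter 2 by 1.63 ± 0.26 (SE, adjusted p = 0.0167) and at -1.01 ± 0.58 between genotypes. Gata1 is also a factor of platelet and mast cell precursors. In these same embryos all 12 platelet markers were lower in every mutant, with a median of -2.65, and 3 of them (Gp9, Gp1ba and Treml1) passed. Over all features 0.532% were lower in the mutants without overlap and 0.0447% passed. Of 12 granulocyte and mast cell markers 11 were lower and 4 passed (Mpo, S100a8, S100a9 and Hdc). With litter as a block the differences were the same but none of these 7 genes passed, with adjusted p from 0.0531 to 0.0643. The part of platelet and mast cell precursors in the difference of Gata1 was not tested.

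**Figure D3:**
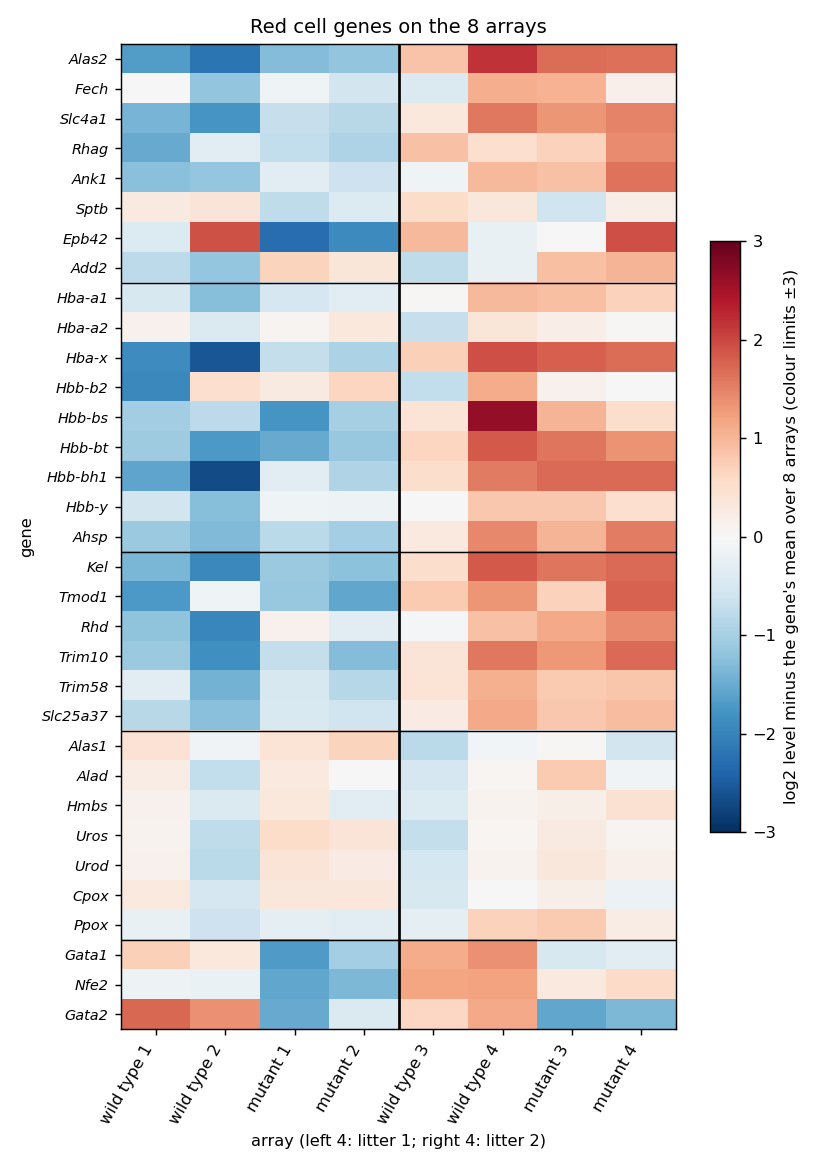
Level of each gene minus its own mean over the 8 arrays (colour, log2, limits ±3), with genes in rows and arrays in columns, litter 1 on the left and litter 2 on the right. Blocks from the top are the 8 genes, globins with Ahsp, other litter-dependent red cell genes, the 7 other heme enzymes, and Gata1, Nfe2 and Gata2. Alas2, Slc4a1, Hba-x, Hbb-bt, Hbb-bh1 and Kel turn from blue to red across the litters, the heme enzymes stay pale, and Gata1 and Gata2 are bluer in the mutants of each litter.

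Markers of other cell types moved between the litters as well. Of 11 measured macrophage markers 7 were higher in litter 2 at an adjusted p under 0.05, among them C1qa at 1.98 and Mrc1 at 1.73, and their summed level (log2 of the summed scaled signals) was 3.15 to 3.89 in litter 1 and 4.61 to 5.07 in litter 2. Of 10 hepatocyte markers 9 were higher in litter 2 and 3 passed: Afp at 6.02 ± 1.04 (SE), Ttr at 2.26 and Apoa1 at 3.01. Their summed level was 4.80 to 5.27 in litter 1 and 4.33 to 6.92 in litter 2, although livers had been removed. By genotype the summed level was 4.33 to 5.22 in wild type and 5.25 to 6.92 in mutant embryos. Of the 10 markers 9 had a higher mutant mean and none passed between genotypes. The median mutant minus wild type difference of the list was -0.05 in litter 1 and 1.91 in litter 2. Alb, which encodes albumin, was well above background on all 8 arrays, at 0.98 ± 0.54 between litters without passing. All 12 endothelial markers were lower in litter 2 and 3 passed (Cdh5, Kdr and Esam), with summed levels of 9.29 to 10.09 in litter 1 and 8.37 to 9.25 in litter 2. Of 12 neural markers none passed, and of 10 muscle markers 1 did, Myh3 at 1.58. The part of these cell types in the litter differences of Alas2, Slc4a1, Rhag and Ank1 was not tested, and litter and slide cannot be told apart there.

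Beside Add2, which neurons also use, 9 of the 12 neural markers had a higher mutant mean (median difference 0.26), and none passed; their summed level was 4.85 to 5.46 in wild type and 4.95 to 5.63 in mutant embryos. The lean was not particular to neural markers: 9 of 12 endothelial (median 0.23) and 9 of 10 hepatocyte markers (median 0.90) also had a higher mutant mean. Muscle markers were 6 higher and 4 lower. All 12 platelet, 10 of 11 macrophage and 11 of 12 granulocyte and mast cell markers were lower. The part of neural RNA in the difference of Add2 was not tested.

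The genes of the array whose course over the 8 embryos lay closest to the mean course of the 8 genes were drawn out next. Likeness was the root mean square distance between values from which each gene's own mean had been taken, over 8 arrays and all features with a symbol. The 10 closest were En2 (0.0956), B430203I24Rik (0.134), Gm9868 (0.159), Il22ra1 (0.168), Cdhr1 (0.173), Tmem200c (0.176), Btbd17 (0.181), Slain1 (0.187), Cilp2 (0.190) and Ifna7 (0.194). The mean course of the 8 genes is itself higher in litter 2, so genes chosen for lying close to it had to be higher there too. Their litter differences, from 1.24 for Slain1 to 1.71 for Il22ra1, are therefore no separate result. Among the 8 genes themselves the distance to their own mean was smallest for Ank1 at 0.348 and Rhag at 0.372, and largest for Epb42 at 1.29.

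**Figure D4:**
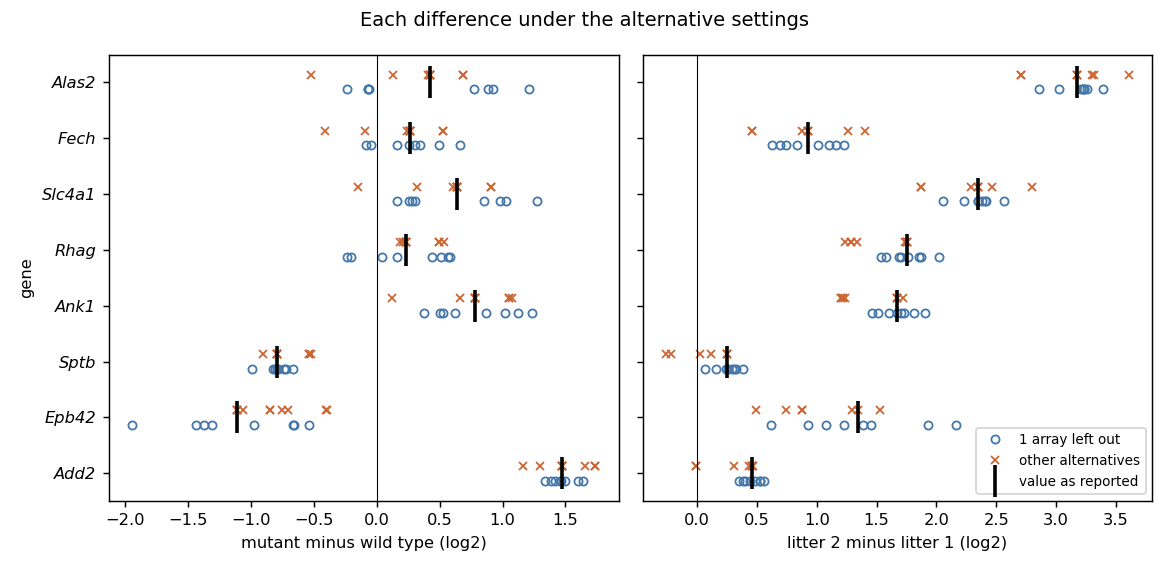
Difference of each of the 8 genes between genotypes (left, log2) and between litters (right, log2) as reported (black bar), with 1 array left out (circles) and under the other alternatives (crosses). The genotype differences of Alas2, Fech, Slc4a1 and Rhag fall on both sides of 0, those of Add2 lie between 1.16 and 1.74, and the litter differences of Alas2 stay above 2.70.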

How the data were processed

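The members and the gene lists were chosen with earlier results of these data known, and no list serves as independent support. The authors deposited scanner output of 8 1-colour arrays, with processed spot intensity values and background flags from Agilent Feature Extraction 10.7.3.1, per the file headers, and probe positions on mm9. They also deposited a limma table with log2 values, log2 fold changes, p-values and moderated statistics (a score for each probe), per the file headers; its version is not given in the sources used here. That table holds 50120 non-control probes and 7 of the 8 genes, without Sptb, and its genotype differences for these genes equal those that median scaling gave here.

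From the scanner files, control spots and outlier spots were left out, log2 of the processed signal minus the array's 75th percentile was taken, and spots of a probe were averaged. A probe entered the tests if its signal was well above background on 4 or more of the 8 arrays (48110 of 55681). Of several probes of a gene the brightest was used, and probes without a gene name were kept as features, which gave 40227. RefSeq tables named 26762 probes by accession and 4458 by symbol or synonym, 2044 bear the file's own name, and 22417 stayed unnamed. limma 3.58.1 in R 4.3.3 (lmFit, eBayes, Benjamini-Hochberg) tested mutant against wild type in all 8 arrays. The litter difference had genotype in the model, and the change of the genotype difference between litters was an interaction term. Single genes also had an exact two-sided permutation test.

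The number of arrays limits the precision. Each array is 1 embryo, so replicates are separate animals. Embryos with the same number in both genotypes do not share an animal, and their deviations from the group means correlated at 0.616, -0.029, -0.095 and -0.162, so numbers were not used as pairs. Alternatives were litter or replicate number as a block, quantile, median and normexp scaling, other filters on dim probes, the mean over probes, the deposited values, and arrays left out. Named were the 8 genes, Gata2, the globins, of each list the genes past the adjusted threshold in the genotype or litter comparison, then up to 4 with the lowest unadjusted p under 0.05 between genotypes, else the 2 brightest where a result needed them, and the 10 most alike genes. Not every gene that met this rule is printed: of the macrophage markers past the litter threshold, only C1qa and Mrc1 are named, as examples. Genes given as examples of a list beyond that, such as Urod, Epor, Alb and the adducins, were chosen after their values were seen. One further gene, counted in its list, is not reported here. The place of the probes in exons or untranslated regions was not analysed here.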

Additional observations from a re-analysis of the deposited data

Results flagged for a closer look

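Arrays standing apart within 4 embryos of a genotype were looked for in 79 genes (158 groups), where chance alone marks about 1 group in 20. None of the 8 heme and membrane genes had one. The gap of the lone array to its nearest neighbour, as a share of the group's range, exceeded Dixon's 95% critical value in 5 groups. It was 0.932 for Car1 in the mutants, where embryo 4 read -1.21 and the others -3.06 to -2.93. It was 0.846 for Gp9 in the mutants, where embryo 2 read 0.077 and the others -1.65 to -1.38. In the wild type it was 0.870 for Treml1, 0.835 for S100a8 and 0.857 for S100a9, and wild type embryo 2 was the low one for all 3. Apoa1 went opposite ways in the litters, with every mutant below the wild type embryos in litter 1 (-0.54 on average) and above them in litter 2 (2.72); the interaction was 3.26, and it did not pass the test (adjusted p = 1.00).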

How the results depend on the processing

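No gene of the 8 passed the adjusted threshold between genotypes under any of the 18 alternatives run for it. The number of features past it, 18 as reported, was 0 with litter as a block, 0 with the replicate number as a block (which pairs no samples), 1 after quantile normalization, 39 after normexp correction, 8 without the filter on dim probes, 53 with the deposited table's values and 0 without the 3 arrays that stood apart; with 1 array left out it was 0 to 24. The median difference of the 8 genes, 0.34, was -0.28 without those 3 arrays and -0.0036 to 0.94 with 1 array left out. Scaling by the median moved the median of all features from 0.05 to 0.32 between genotypes, and that of the 8 genes to 0.61. The count of genes past the threshold between litters, 4, was 2 with median scaling, 2 with the deposited table's values and 0 to 4 with 1 array left out. Over all features the count between litters, 1975, was 1011, 1297 and 4 to 3965 in these settings. Signs turned for values that had not passed: without the 3 arrays Alas2 was -0.52, Fech -0.41 and Slc4a1 -0.15 between genotypes; with 1 array left out Alas2 ran from -0.24 to 1.21, Fech from -0.086 to 0.67 and Rhag from -0.24 to 0.58; after quantile normalization Fech was -0.091 between genotypes and Sptb -0.26 between litters; with median scaling Sptb was -0.21 and Add2 -0.011 between litters, and Add2 -0.011 with the deposited values. The cause was not tested. With litter as a block no call on the 8 genes changed, and with the replicate block the adjusted p of Add2 was 0.669. Epb42 had no value when all 8 arrays had to be well above background, and Sptb none in the deposited table. With litter as a block the SE of the genotype difference fell from 1.03 to 0.35 for Alas2 and from 0.79 to 0.33 for Slc4a1. The 4 embryos a genotype limit the precision of all these differences.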
